A study of Mus musculus with 8 samples.

Results

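The Kruppel-like factors (Klf) are transcription factors that bind GC-rich and CACCC sequences through zinc fingers at the end of the protein, while the rest of the protein differs between members and recruits activators or repressors. Klf2, Klf4 and Klf5 are known in mouse embryonic stem cells (ESC) as overlapping regulators that help hold the naive pluripotent state, with Klf4 a known target of LIF and Stat3 signalling and Klf2 a known target of Erk5 and Mef2. The remaining members are known from other settings: Klf3 as a repressor that recruits Ctbp, Klf10 as a gene induced by TGF-beta, Klf9 and Klf13 as repressors that bind Sin3a, Klf15 as a gene induced by glucocorticoids, Klf6 as an early response gene, and Klf7 as a factor of developing neurons.

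The family was taken as a list of 10 genes (Klf2, Klf3, Klf4, Klf5, Klf6, Klf7, Klf9, Klf10, Klf13 and Klf15), matched by symbol in a table of exon values and a table of intron values. Of the 10, 9 were matched among 20512 named genes with exon values and 9 among 18655 with intron values. Levels of Klf9 were not analysed here. The 9 were set out as the pluripotency paralogs (Klf2, Klf4 and Klf5) and the 6 other members.

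RNA came from 2 cell types on a shared hybrid genetic background, 129Sv-Cast/EiJ. The ESC line F1-21.6 was grown in serum with leukaemia inhibitory factor (LIF) on a layer of mouse embryonic fibroblasts whose division had been stopped with mitomycin C, and the neural progenitor cells (NPC) came from a single clone differentiated from that line. No gene was altered and no other agent was given, as far as the labels say. Each cell type had 2 biological replicates with 2 technical libraries each, 8 libraries in all, made from total RNA after removal of ribosomal RNA and read as 50 bp single ends. NPC from a single clone cannot show how clones vary, and the labels do not say whether biological replicates were separate cultures, so p-values measure the spread between these samples only. It is unknown whether the exon test deposited by the authors took technical libraries as separate replicates. Exon adjusted p-values, and the shares of genes passing on exons, may thus rest partly on technical spread.

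Levels are in RPKM, a read density scaled to the length of exon or intron and to the size of the library, and can be compared between genes because they are per length. Exon levels are 1 value per cell type, pooled over libraries by the authors, and so carry no replicate spread. Intron levels are 1 value per biological replicate. Whole intron reads calculated back from these values summed over genes to 6212209 in ESC replicate 1 and 6998307 in ESC replicate 2. In NPC they summed to 6128413 in replicate 1 and 5533719 in replicate 2. These sums lie above the library sizes recovered from the same values (5767704, 6500767, 5792056 and 5186790 reads), so they are not counts of separate reads. As a check of the labels, 6 ESC markers summed to 5484 exon RPKM in ESC and 12.6 in NPC, and 6 NPC markers summed to 449 and 14239. NPC also carried astrocyte markers (4 genes, 14.1 RPKM summed in ESC and 888 in NPC). NPC replicate 1 stood apart on introns. In it, 242 olfactory, vomeronasal and taste receptor genes, which neither cell type is known to use, had a median intron level of 0.748 RPKM, against 0.0829 in NPC replicate 2, 0.0295 in ESC replicate 1 and 0 in ESC replicate 2. Among tested genes the median intron level was 1.76 RPKM in NPC replicate 1, 2.65 in NPC replicate 2, and 3.14 and 3.22 in the ESC replicates.

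The sequences just before the start of 4 members are shown because these members moved in opposite directions on exons, Klf2 and Klf4 lower and Klf13 and Klf15 higher in NPC. Each is the 250 bases before the RefSeq start in build GRCm38.p6, 5′ to 3′ on the strand of the gene, and capitals mark GC boxes (GGGCGG or its complement CCGCCC) and CACCC (or its complement GGGTG), the letters that Klf and Sp proteins are known to bind. The windows are chr8:72318812-72319061 (+ strand) for Klf2, chr4:55532476-55532725 (- strand) for Klf4, chr7:63938916-63939165 (- strand) for Klf13 and chr6:90462326-90462575 (+ strand) for Klf15.
Klf2: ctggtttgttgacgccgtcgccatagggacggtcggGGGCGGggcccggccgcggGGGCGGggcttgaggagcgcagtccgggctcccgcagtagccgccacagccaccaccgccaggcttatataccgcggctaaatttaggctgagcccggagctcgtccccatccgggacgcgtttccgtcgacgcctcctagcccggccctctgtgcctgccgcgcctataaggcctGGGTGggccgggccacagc
Klf4: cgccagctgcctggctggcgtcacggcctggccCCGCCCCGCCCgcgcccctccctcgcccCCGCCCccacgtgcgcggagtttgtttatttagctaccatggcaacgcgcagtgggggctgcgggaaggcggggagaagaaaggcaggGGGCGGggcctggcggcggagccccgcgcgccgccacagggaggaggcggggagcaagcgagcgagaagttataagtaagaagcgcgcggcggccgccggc
Klf13: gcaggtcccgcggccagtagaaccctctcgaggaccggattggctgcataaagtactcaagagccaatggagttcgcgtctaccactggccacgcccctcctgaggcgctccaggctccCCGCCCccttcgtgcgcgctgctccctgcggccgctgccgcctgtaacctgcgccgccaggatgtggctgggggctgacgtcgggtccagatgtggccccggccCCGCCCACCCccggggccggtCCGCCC
Klf15: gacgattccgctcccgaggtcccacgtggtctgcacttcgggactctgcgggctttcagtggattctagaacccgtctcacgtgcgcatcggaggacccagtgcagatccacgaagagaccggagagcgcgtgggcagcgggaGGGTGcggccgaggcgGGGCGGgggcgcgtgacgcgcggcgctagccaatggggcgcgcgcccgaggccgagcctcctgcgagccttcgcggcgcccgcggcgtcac

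The set of RefSeq windows used here held 8 of the 10 members. Klf5 and Klf10 had no entry in that set. A GC box stood in 7 of the 8 windows (not in that of Klf9), as in 32.7% of all 32851 windows in the table, and CACCC stood in 6 of 8, as in 52.0% of all. The members' windows were GC-rich, with 59.2% G or C in Klf7 to 78.4% in Klf3, against a median of 52.4%. Klf2 held 2 GC boxes and 1 CACCC, and Klf4 held 4 GC boxes and no CACCC. Klf13 held 3 GC boxes and 1 CACCC, whose letters overlap 1 of its GC boxes, and Klf15 held 1 of each. Genes that fell and genes that rose thus both carried GC boxes. A MEF2 box, present in 2.92% of windows, was found in Klf2 alone. TTCNNNGAA, present in 7.02% of windows, was found in Klf9 alone and so not in Klf4. CCAAT stood in 4 of 8 windows, against 33.8% of all. TGACG, present in 17.8% of windows, was found in Klf2, Klf4, Klf9, Klf13 and Klf15. No member's window held TATAAA or a CArG box. CACGTG, present in 6.02% of windows, was found in Klf4, in Klf6 and at 2 places in Klf15. Matches were sought on both strands and describe letters only, and the starts used by the authors for counting were not compared with the RefSeq starts.

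On exons the pluripotency paralogs fell together by far larger amounts than any other member, while the other members split. Of the 9 members, 7 passed an adjusted p of 0.05 in the authors' deposited table, where 66.2% of 12509 genes also passed (those whose mean reached 1 RPKM), so the count itself is close to the background. By direction, 2 members were higher in NPC (32.3% of all genes were) and 5 were lower (33.9%). Klf2, Klf4 and Klf5 were each lower, with a median log2 fold change of -7.27 in the deposited table, beside -0.07 over all genes tested. Among the 6 other members, 2 were higher, 2 were lower and 2 did not pass, with a median of 0.01. Neither median was tested.

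**Figure D1:**
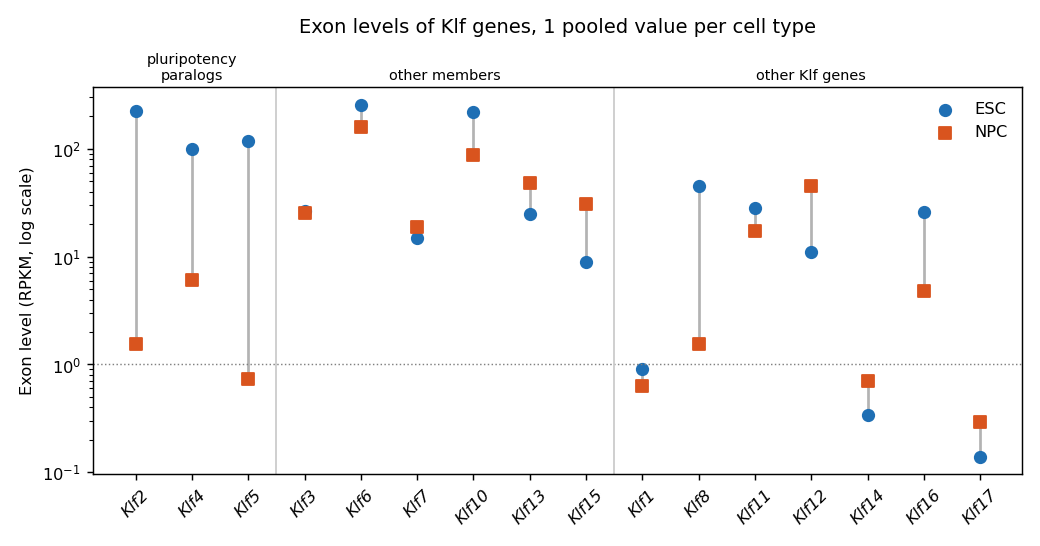
Exon levels of Klf genes in RPKM on a log axis, 1 value per cell type pooled by the authors, with circles for ESC and squares for NPC joined by a grey line and a dotted line at 1 RPKM. Klf2, Klf4 and Klf5 drop from between 99.2 and 226 RPKM in ESC to between 0.729 and 6.12 in NPC, while the 6 other members stay at 8.90 RPKM or more in both cell types.

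Klf2, a factor known to keep naive ESC from differentiating and, in the body, for its part in endothelium and T cells, was the second most abundant member in ESC. Its pooled exon level was 226 RPKM in ESC and 1.55 in NPC, and the log2 fold change in the authors' deposited table was -7.27 (adjusted p = 1.12e-155). Klf2 starts at chr8:74842961 (mm9, + strand). Its introns, 777 bases in all between 74843049 and 74844642, held 91.3 and 89.9 RPKM in ESC (replicates 1 and 2, an order kept from here on), then 1.78 and 3.23 in NPC, from 409, 454, 8 and 13 reads. Both ESC values lay far above both NPC values. The intron log2 fold change, on the log2(RPKM + 1) scale on which limma was run throughout, was -4.74 (SE 0.716, limma adjusted p = 0.000318). Markers of endothelium, where Klf2 is known to be high, were low: 6 genes summed to 7.15 RPKM in ESC and 2.34 in NPC. Blood and macrophage markers (5 genes) summed to 12.9 and 4.84, with Hbb-b1 at 0 in ESC.

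Klf5, known for its part in the early embryo and in gut epithelium, had the lowest NPC exon level of the 9 listed members. The pooled exon level was 119 RPKM in ESC and 0.729 in NPC, with a log2 fold change of -7.55 in the authors' deposited table (adjusted p = 2.08e-123). That NPC level lay below the 95th percentile of 1466 receptor genes in NPC, 0.797 RPKM, so its ratio rests on a value within the range of genes not known to be used. On introns (chr14:99698442-99702636, mm9, 3321 bases of intron), ESC replicates stood at 25.8 and 31.9 RPKM from 494 and 688 reads, and NPC replicates at 0.520 and 0.348 from 10 and 6 reads. The groups did not overlap, and NPC replicate 1 was below the receptor gene median of its own column. Klf5 introns fell by 4.37 on the log2 scale (SE 0.406, limma adjusted p = 3.3e-05). The size of this fall depended on the scale: it was -5.77 with 0.1 RPKM added in place of 1, and -5.97 with a count model on whole reads (limma voom).

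Klf4, a target of LIF and Stat3 signalling and 1 of the factors used to reprogram somatic cells, fell on exons like the other paralogs but much less on introns. Its pooled exon level was 99.2 RPKM in ESC and 6.12 in NPC, a log2 fold change of -4.06 in the authors' deposited table (adjusted p = 1.08e-41). Introns (chr4:55541173-55544738, mm9, - strand, 2295 bases of intron) held 12.6 and 14.3 RPKM in ESC and 4.74 and 9.74 in NPC, from 167, 214, 63 and 116 reads. Both NPC values were below both ESC values, but they differed from each other by 2.06 times. The intron difference of -0.88 (SE 0.592) did not pass (limma adjusted p = 0.239). It passed without NPC replicate 1 (-0.43, adjusted p = 0.0447) and without NPC replicate 2 (-1.33, adjusted p = 0.00247).

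**Figure D2:**
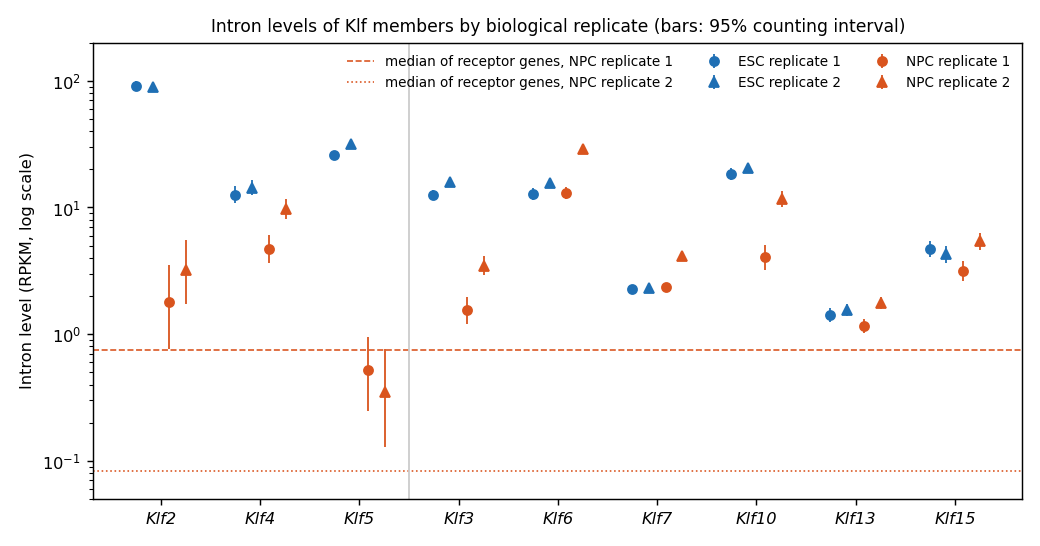
Intron levels of the 9 members in RPKM on a log axis by biological replicate, with 95% counting intervals from the recovered reads (most are smaller than the points) and, as lines, the median of receptor genes in each NPC replicate. Klf2 and Klf5 show the widest gaps between ESC and NPC, and Klf6, Klf13 and Klf15 overlap between the cell types.

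On introns, 3 of 9 members passed in limma, with 47.3% of 8811 tested genes passing, and the 3 (Klf2, Klf3 and Klf5) were lower in NPC, as were 34% of all genes; 13.2% of all genes were higher. The median intron log2 fold change was -4.37 for the pluripotency paralogs and -0.05 for the other members, beside -0.43 for all genes tested. NPC columns were lower as a whole, and scaling the columns to the same median moved the median of all genes to -0.05 and the share of calls that were higher from 28.02% to 49.3%. With that scaling 4583 of the 8811 genes passed and 5 members did, the additional calls being Klf6 and Klf7 as higher (0.96 and 0.73). With a replicate left out, the intron log2 fold change ran from -4.52 to -4.23 for Klf5 and from -5.04 to -4.44 for Klf2. For Klf3 it ran from -2.58 to -1.76. Calls changed with the replicate left out, for members and over all genes alike. More genes passed without an NPC replicate than in the main fit, and fewer without an ESC replicate. A member's call in such a fit is therefore not read as a result about that member. Klf5 passed in every setting run, and Klf2 in every setting but that without ESC replicate 2.

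Klf3, a repressor that recruits Ctbp, combined flat exons with fallen introns. The pooled exon level was 26.3 RPKM in ESC and 25.3 in NPC, and the deposited log2 fold change of -0.19 did not pass in the authors' deposited table (adjusted p = 0.535). Its introns (chr5:65208070-65220215, mm9, + strand, 7497 bases of intron) stood at 12.6 and 16.0 RPKM in ESC and 1.54 and 3.47 in NPC, from 543, 778, 67 and 135 reads. Both NPC values lay below both ESC values, and the introns fell by 2.17 on the log2 scale (SE 0.467, limma adjusted p = 0.00294). This call was lost with no filter on low genes (limma adjusted p = 0.0562). It was also lost without ESC replicate 1 (-2.33) and without ESC replicate 2 (-2.01), fits in which fewer genes passed. The listed introns begin 13.3 kb past the start of the gene, so its upstream part was not in the values. In GENCODE M21, Klf3 overlaps Gm20033 on the opposite strand and C230096K16Rik on its own. No source used here says whether counting used strand, so reads of these genes and of Klf3 cannot be told apart.

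Klf10, a repressor known as a gene that TGF-beta induces early, was the third most abundant member in ESC. Its pooled exon level went from 221 to 88.4 RPKM, a log2 fold change of -1.46 in the authors' deposited table (adjusted p = 2.27e-09). Introns held 18.3 and 20.5 RPKM in ESC and 4.04 and 11.7 in NPC. The groups did not overlap, yet the NPC replicates differed by 2.91 times, and the intron difference of -1.35 (SE 0.677) did not pass (limma adjusted p = 0.12). It passed with the count model (limma voom, -1.50, adjusted p = 0.0438). Without NPC replicate 1 it was -0.68, and without NPC replicate 2 it was -2.02.

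Klf6, an activator known as an early response gene, was the most abundant member in both cell types. The pooled exon level was 256 RPKM in ESC and 161 in NPC, and its exons fell by 0.81 on the log2 scale in the authors' deposited table (adjusted p = 0.00156). Intron levels were 12.8 and 15.7 RPKM in ESC and 13.0 and 29.1 in NPC, so the groups overlapped and NPC replicate 2 alone was high. The intron difference of 0.44 (SE 0.742) did not pass (limma adjusted p = 0.642), and it was -0.11 without NPC replicate 2. Without NPC replicate 1 it was 0.99, the direction opposite to that of the exons.

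Klf7, known in developing neurons, did not pass on exons or introns. It had a pooled exon level of 15.0 RPKM in ESC and 18.9 in NPC (log2 fold change 0.22, adjusted p = 0.616 in the authors' deposited table). Introns held 2.28 and 2.31 RPKM in ESC and 2.38 and 4.12 in NPC, from 1023, 1169, 1071 and 1665 reads over 77834 bases of intron. NPC replicate 1 was barely above the ESC replicates, and the difference was 0.34 (SE 0.265, limma adjusted p = 0.314). It passed as higher without NPC replicate 1 (0.64, adjusted p = 0.00885). Gm26649 and Gm13748 overlap Klf7 on the opposite strand in GENCODE M21.

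Klf13 and Klf15 rose on exons in NPC. Klf13, a repressor that binds Sin3a, had a pooled exon level of 25.1 RPKM in ESC and 48.0 in NPC (log2 fold change 0.82, adjusted p = 0.00164 in the authors' deposited table). Klf15, a glucocorticoid-induced regulator of metabolism, went from 8.90 to 30.7 RPKM (log2 fold change 1.65, adjusted p = 1.53e-06 in the authors' deposited table). Neither gene passed on introns with the 4 replicates as deposited. Klf13 introns stood at 1.42 and 1.54 RPKM in ESC and 1.16 and 1.77 in NPC, and Klf15 introns at 4.73 and 4.27 in ESC and 3.17 and 5.41 in NPC. For each gene NPC replicate 1 was the lowest and NPC replicate 2 the highest of the 4 values, so the groups overlapped. The intron differences were -0.02 (SE 0.193, limma adjusted p = 0.936) for Klf13 and -0.09 (SE 0.36, limma adjusted p = 0.851) for Klf15, and scaling the columns to the same median turned them to 0.30 and 0.36. Other settings moved Klf15 introns in opposite directions. They were at -0.40 without NPC replicate 2. With the receptor gene median taken off and the columns scaled to 1 sum they passed as higher (0.66, limma adjusted p = 0.0101). Gm27252 and E030018B13Rik overlap Klf13 on the opposite strand.

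**Figure D3:**
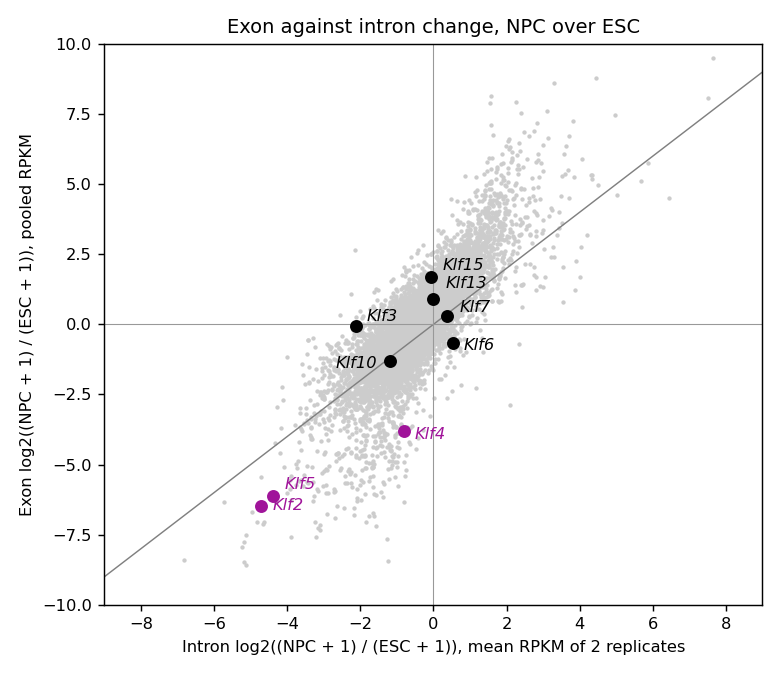
Exon change against intron change, both as the log2 ratio of NPC + 1 over ESC + 1 RPKM, with 8380 genes in grey, the pluripotency paralogs in purple, the other members in black and a diagonal of equal change. Klf4 lies furthest below the diagonal among the members, and Klf3 and Klf15 lie furthest above it.

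The exon and intron changes were set side by side as the exon log2 ratio minus the intron log2 ratio, both with 1 RPKM added. Over 8380 genes tested in both tables this difference had a median of 0.39, a 5th percentile of -1.33 and a 95th percentile of 1.92. Klf4 was at -3.00, and 1.32% of genes were lower. Klf2 was at -1.77 and Klf5 at -1.73, with 3.54% and 3.57% of genes lower, so on this scale the exons of each paralog fell more than its introns. For Klf5 the size depends on the RPKM added, as its intron fall does. Klf6 was at -1.20 (5.66% of genes lower). These ranks are over all genes, not over genes whose exons fell as far. Outside the list, Klf8 was at -3.52, beyond Klf4, with Klf16 at -1.33, Klf11 at -0.56 and Klf12 at 1.84. Klf8 introns were low, at 1.52 and 1.58 RPKM in ESC and 1.05 and 0.156 in NPC. NPC replicate 1 was not far above the receptor gene median of its column (0.748), so the place of Klf8 beyond Klf4 is uncertain. Naive network genes also fell more on exons (median -8.35 in the authors' deposited table, 11 genes). Their median on introns was -3.04 (limma, 10 genes). At the other end, Klf3 was at 2.07 and Klf15 at 1.74, with 95.9% and 93.1% of genes lower, and Klf13 was at 0.92. Exon values have no replicates, so this difference has no error and was not tested.

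The same contrast shows in the intron level as a percentage of the exon level. For Klf4 this was 13.6% in ESC and 118% in NPC, for Klf2 40.1% and 161%, and for Klf5 24.3% and 59.5%. Klf3 went the other way, from 54.2% to 9.93%, as did Klf15, from 50.6% to 13.9%. The median gene was at 12.3% in ESC (8186 genes) and 8.76% in NPC (8037 genes). Exon and intron RPKM were scaled to different totals, so these percentages order genes and are not shares of molecules. The NPC introns of Klf4, at 4.74 and 9.74 RPKM, were above the receptor gene medians of their columns (0.748 and 0.0829), as were those of Klf2 (1.78 and 3.23). For Klf5, NPC replicate 1 was below its column's median on introns (0.520) and the NPC exon level was within the range of receptor genes, so its 59.5% is a ratio of values near that background.

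Taking the 9 members as a pool, their summed exon level was 995 RPKM in ESC and 380 in NPC. Klf2, Klf4 and Klf5 made up 444 RPKM of it in ESC (44.6%) and 8.41 in NPC (2.21%). The other members summed to 552 RPKM in ESC and 372 in NPC. In ESC the order was Klf6, Klf2, Klf10, Klf5, Klf4, Klf3, Klf13, Klf7 and Klf15. In NPC it was Klf6, Klf10, Klf13, Klf15, Klf3, Klf7, Klf4, Klf2 and Klf5. Klf15 thus moved from the last place to the fourth. Neighbours in these orders cannot be told apart by spread, since exon levels have no replicates. In bulk RNA, fewer cells with a transcript and less transcript per cell cannot be told apart.

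**Figure D4:**
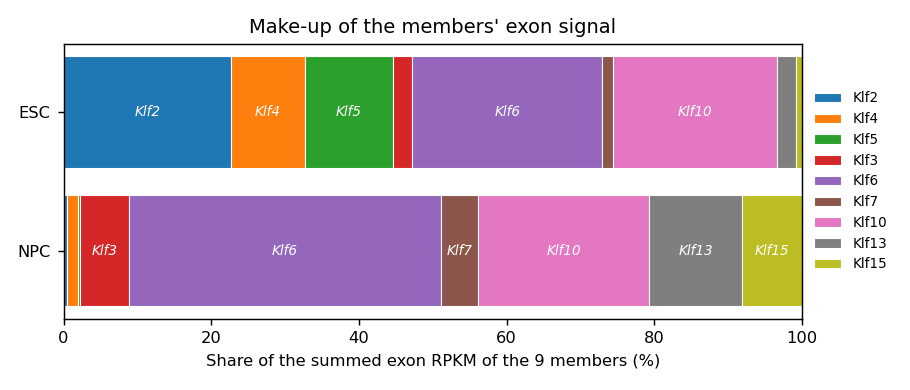
Share of each member in the summed exon RPKM of the 9 members, in percent, for ESC and NPC. Klf2, Klf4 and Klf5 fill 44.6% of the ESC bar and 2.21% of the NPC bar, and Klf6 is the widest block in both.

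ESC were grown on fibroblasts, a cell type that also uses Klf genes. The 12 fibroblast markers summed to 85.6 RPKM in ESC and 20.98 in NPC, 11 of them were at 1 RPKM or more in ESC and 5 in NPC, and none was at 0. Tagln, an actin-binding protein of fibroblasts and smooth muscle, made up much of the sum (36.0 and 0.797). Thy1 (13.04 and 4.71) and Acta2 (12.3 and 0.827) came next in ESC. The collagen genes Col1a1 (4.96 and 0.337) and Col1a2 (3.06 and 0.44) were low in both. Of the 12, 7 fell and 1 rose in the authors' deposited table. The part of these cells in the Klf levels of ESC was not tested. Markers of keratinocytes and gut epithelium, where Klf4 and Klf5 are known to be high, summed over 4 genes to 1.43 RPKM in ESC and 1.09 in NPC.

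Among the other Klf genes, 4 of 7 reached a mean of 1 RPKM on exons. Of the 4 genes, 3 were lower in NPC and 1 was higher in the authors' deposited table (median log2 fold change -1.66). Klf8, a repressor that binds Ctbp as Klf3 does, fell from 45.2 to 1.54 RPKM (-5.03, adjusted p = 3.48e-82 in the authors' deposited table), a drop between those of Klf4 and Klf2. Klf8 introns were at 1.52 and 1.58 RPKM in ESC and 1.05 and 0.156 in NPC and also fell (-0.73, SE 0.243, limma adjusted p = 0.0281). Klf16, a repressor of the Sin3a-binding group, fell from 26.1 to 4.85 RPKM on exons (-2.53 in the authors' deposited table) and on introns (-0.88, SE 0.177, limma adjusted p = 0.00187). Klf11, a relative of Klf10, fell from 28.03 to 17.3 RPKM on exons (-0.79, adjusted p = 0.0174 in the authors' deposited table). Klf12, another Ctbp-binding repressor, rose from 10.96 to 45.2 RPKM (1.91, adjusted p = 8.12e-14 in the authors' deposited table). Klf12 introns, at 1.89 and 1.99 RPKM in ESC and 1.74 and 2.62 in NPC, overlapped and did not pass (0.10, SE 0.214, limma adjusted p = 0.719). On exons the Ctbp-binding Klf genes thus differed in direction, since Klf8 fell, Klf12 rose and Klf3 did not pass, while on introns Klf3 and Klf8 both fell.

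The Sp genes encode the factors nearest to Klf by their zinc fingers, and 6 of 9 were tested on exons. Of these, 2 were higher and 3 lower in the authors' deposited table, with a median log2 fold change of -0.84. Sp1, the widely used activator of GC boxes, fell from 141 to 53.0 RPKM on exons, and its introns fell from 2.96 and 2.89 to 1.38 and 0.986 (-0.85, SE 0.199, limma adjusted p = 0.00472). Sp2 fell from 21.1 to 5.19 RPKM and Sp6 from 3.53 to 0.278. Sp3, at 68.6 and 70.0 RPKM, did not pass (adjusted p = 0.66 in the authors' deposited table). Sp4, known in neurons, rose from 7.16 to 33.3 RPKM on exons, and on introns from 1.01 and 0.894 to 2.43 and 2.63 (0.86, SE 0.183, limma adjusted p = 0.0028). Sp9 rose from 0.292 to 2.14 RPKM.

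Genes linked to the paralogs and to the other members were followed as lists, which were not tested as lists. Their counts stand beside 32.3% of all tested genes higher and 33.9% lower on exons. Of 12 genes of the naive network, 11 were in the exon table (Sox2 was not), and each of these 11 fell. Their median log2 fold change was -8.35 in the authors' deposited table. Pou5f1, which holds pluripotency, went from 1327 to 2.94 RPKM, Zfp42, a marker of naive cells, from 492 to 1.26, and Nr0b1, a repressive nuclear receptor, from 187 to 0.565. Klf2 (-7.27) and Klf5 (-7.55) lay nearer to this median than Klf4 (-4.06). In the LIF and Stat3 list, which holds genes upstream of Klf4 and also the Stat3 target Pim1, 4 of 9 tested genes rose. The 2 that fell were Pim1 and Socs3, and the median was 0.39. Stat3, the transcription factor of the pathway, rose from 67.6 to 157 RPKM and Jak2, its kinase, from 10.3 to 88.0, while the Stat3 target Pim1 fell from 40.5 to 1.92. In the Erk5 and Mef2 list, upstream of Klf2, 3 of 7 tested genes rose and 1 fell (median 0.18): Mef2c rose from 0.156 to 12.9 RPKM, Map2k5 from 3.42 to 8.50, and Map3k3 fell from 26.6 to 10.01.

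Signals known to induce other members came next. Of 8 tested TGF-beta genes, a pathway known to induce Klf10, 5 rose and 2 fell on exons (median 1.05 in the authors' deposited table). On introns 4 of these genes were tested, with a median of -0.35, and the single call, Smad7, was lower (-0.77, limma adjusted p = 0.00521). The ligands Tgfb2 and Tgfb3 rose on exons from 1.52 to 36.4 and from 2.00 to 31.0 RPKM, and the receptor Tgfbr2 from 4.00 to 34.3. The 2 that fell on exons were Smad7, from 25.7 to 4.07 RPKM, and Smad2, from 71.2 to 50.8. Klf10 itself fell. Of 7 tested genes of glucocorticoid and thyroid hormone response, which is known to induce Klf9 and Klf15, 4 rose and 2 fell (median 1.42). Thra, a thyroid hormone receptor, rose from 3.64 to 114 RPKM and Tsc22d3, a glucocorticoid-induced gene, from 1.04 to 14.1, whereas Sgk1, another glucocorticoid-induced gene, fell from 92.9 to 11.1. Of 13 primary response genes, the class to which Klf6 and Klf10 are often assigned, 7 rose and 4 fell (median 0.59). Fos rose from 24.3 to 1363 RPKM, Egr1 from 19.3 to 492 and Egr2 from 3.01 to 35.9. Klf6 and Klf10 fell in the same comparison.

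Partners of Klf proteins moved in both directions. Among 14 genes of corepressors and coactivators, 2 rose and 6 fell (median -0.41 in the authors' deposited table). The Ctbp genes, whose proteins are partners of Klf3, Klf8 and Klf12, moved apart: Ctbp2 fell from 108 to 28.2 RPKM, and Ctbp1, named after its values were seen, rose from 52.9 to 125 (log2 fold change 1.099, adjusted p = 9.53e-06 in the authors' deposited table). Sap30, a subunit of the Sin3 complex, fell from 220 to 71.9 RPKM and Kat2b, an acetyltransferase, from 35.4 to 14.6. Among 8 ubiquitin ligase genes that act on Klf proteins, 2 rose and 1 fell (median 0.18). Fbxo32 rose from 7.52 to 61.7 RPKM and Vhl from 17.6 to 52.8, and Fbxw7 fell from 67.5 to 48.4.

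**Figure D5:**
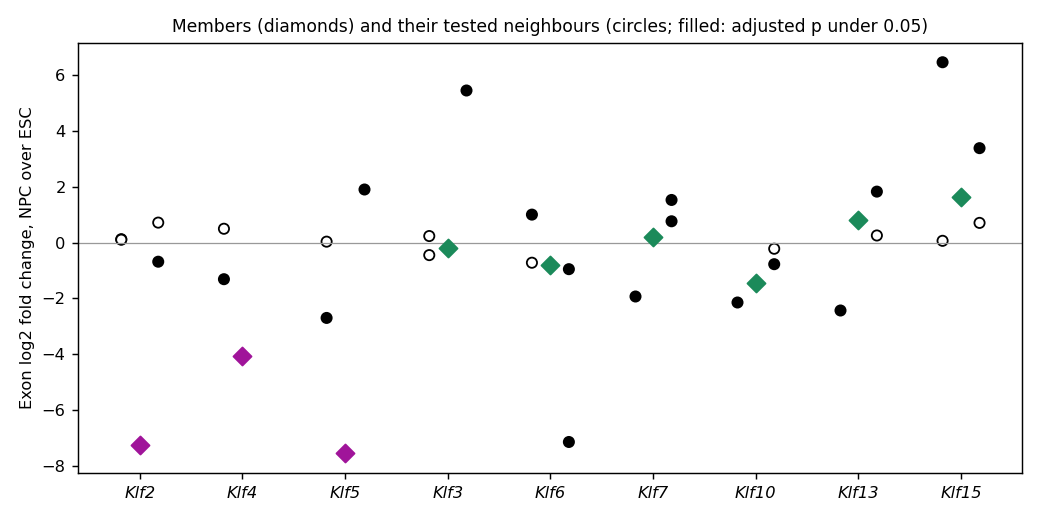
Exon log2 fold change (NPC over ESC) of each member (diamond) and of its tested neighbours on each side (circles, filled where the adjusted p in the authors' deposited table was below 0.05). The neighbours of Klf2, Klf4 and Klf5 lie between -2.70 and 1.91, well above the diamonds of these 3 members.

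No tested neighbour of Klf2, Klf4 or Klf5 fell as far as the member beside it. The 2 named genes nearest to each member by start on each side (mm9) gave 36 neighbours, of which 29 were tested. Of these 17 were called, 8 higher and 9 lower, where 66.2% of all tested genes were called. Around Klf2, Klf4 and Klf5, 9 neighbours were tested and 4 called, 1 higher and 3 lower. Eps15l1, 102 kb from Klf2, had a log2 fold change of -0.68 in the authors' deposited table, Rad23b, 182 kb from Klf4, of -1.31, and Dis3, 199 kb from Klf5, of -2.70. Klf12, the next named gene on the other side of Klf5 at 851 kb, rose by 1.91, so 2 family members side by side moved in opposite directions. Around the other members 20 neighbours were tested, 7 were higher and 6 lower. The widest differences were at Klf6, where Pfkp, a glycolytic enzyme gene 787 kb away, fell from 136 to 1.12 RPKM, at Klf15, where Ccdc37 (48.6 kb) rose from 0.171 to 18.4 and Slc41a3 (142 kb) from 0.296 to 3.74, and at Klf3, where Tlr6 (157 kb) rose from 0.0959 to 5.25. Other called neighbours included Akr1e1 (1.00) and Pitrm1 (-0.95) at Klf6, Fastkd2 (-1.93), Creb1 (1.53) and Mettl21a (0.77) at Klf7, Atp6v1c1 (-0.77) at Klf10, and Chrna7 (-2.41) and Mtmr10 (1.83) at Klf13, as log2 fold changes in the authors' deposited table.

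The genes nearest in pattern were sought by the Euclidean distance over 6 values, log2(RPKM + 1) of 2 exon and 4 intron levels, among 17965 genes in both tables. Nearest to Klf2 were Pramel7 (distance 2.31), Ooep (2.35) and Zfp42 (2.43), each at 140 RPKM or more on ESC exons and at 1.26 or less on NPC exons. Nearest to Klf5 were Zscan10 (0.596), Slc7a3 (0.721) and Triml2 (0.765). For Klf4 they were Yrdc (1.52), Trp53 (1.61) and Rnf44 (1.66), each of which kept at least 11.01 RPKM on NPC exons, above the 6.12 of Klf4. Klf6, the other member with the highest NPC exon level, was nearest to Tubb2b (0.886), Snrnp70 (0.95) and Puf60 (0.978). Klf5 thus had closer neighbours in pattern than Klf2 or Klf4. The distance sums levels and changes alike and rests on 2 biological replicates per cell type.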

How the data were processed

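RNA-seq was compared between 2 ESC and 2 NPC biological replicates. For exons, the authors deposited log2 fold changes (NPC over ESC), adjusted p-values and RPKM pooled per cell type. The submitters' processing notes name DESeq2 1.10.0 and mm9. Aligner, counter and gene annotation: not given in the sources used here. Intron values are per biological replicate; their header names no unit, and RPKM was inferred from these deposited values, which came back as whole reads (within 0.001 reads) for all 18447 genes above 0. Several intron lengths gave whole reads for 1744 genes, Klf2 among them. For these the intron length of a GENCODE M21 transcript was taken where it matched, and otherwise the largest length. Their read numbers depend on that choice.

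Exon calls are those of the authors' deposited table at an adjusted p of 0.05, for genes whose mean reached 1 RPKM (2350 named genes had no adjusted p). Whether that exon test merged the technical libraries of each biological replicate could not be established. Introns were tested with limma 3.58.1 (R 4.3.3, mean-variance trend, Benjamini-Hochberg over all tested genes) on log2(RPKM + 1), a scale that shrinks the fold changes of low genes. The scripts were tested on simulated data. The limma p-values cover 2 against 2 replicates; counting intervals are exact Poisson and cover counting error only.

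The members and lists were chosen with earlier results of these data known. Named genes are all members, the other Klf and Sp genes whose exon mean reached 1 RPKM, up to 3 called genes with the largest fold change per other list, called neighbours, and the 3 genes nearest in pattern. Feeder and other marker genes were named in part after their values were seen. A called neighbour is not reported here by name.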

Additional observations from a re-analysis of the deposited data

How the results depend on the processing

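The exon calls (7 members) did not change without the filter, with a mean of at least 10 RPKM or at an adjusted p of 0.01. As log2 ratios of deposited RPKM + 1, the exon medians were -6.11 for Klf2, Klf4 and Klf5 and 0.13 for the other members. On introns, 3 members passed as main result and 5 with columns scaled to the same median. With the receptor gene median taken off and columns scaled to 1 sum, 6 passed, an alternative chosen after seeing the data. Calls also changed with the replicate left out. Klf2, Klf3 and Klf5 were lower in every setting run. Others changed sign: Klf4 to 0.013 in the added scaling; Klf13 to 0.30 with equal medians and 0.18 in the added scaling, and from -0.20 to 0.16 with a replicate left out; Klf15 to 0.36, 0.66 and from -0.40 to 0.22 likewise; and Klf6 from -0.11 to 0.99 with a replicate left out. In the added scaling Klf6 passed as higher, at 1.46 (limma adjusted p = 0.00136). In a fit that leaves out a replicate, the lone sample is assumed to vary like the other group. Over all genes, calls numbered 4165 of 8811, against 1166 of 18655 without the filter. They numbered 4583 with equal medians and 2728 with the receptor gene median taken off. The added scaling called 5453 genes, 53.6% of them higher. With the replicate number as a block, 3 members passed (3777 genes in all). Replicate 1 minus replicate 2 in ESC correlated at 0.019 with the same difference in NPC over the 8811 tested genes. Equal replicate numbers were not taken to pair samples. The cause of the differences between settings was not tested. In NPC, Klf2 and Klf5 introns rest on 6 to 13 reads per replicate.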
